A study of Mus musculus with 4 samples.

Results

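The antioxidant and iron handling genes described here are 10 transcripts: Hmox1, Nqo1, Gclm, Slc7a11, Srxn1, Txnrd1, Fth1, Ftl1, Slc40a1 and Tfrc. They were chosen by symbol, each matched exactly 1 row in all 4 count matrices, and they make up 10 of the 32285 genes listed there. Their levels were read as summed unique molecular identifiers (UMIs) of a gene, scaled to the total of its cell type as counts per 1000000 UMIs (CPM), and as the percent of barcodes with at least 1 UMI. Only barcodes with at least 200 detected genes and at most 10% mitochondrial UMIs were used.

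The study sorted live CD45+ leukocytes from collagenase-digested hindpaws of male Lepr db/db mice (DB), an obese and hyperglycaemic model that lacks the long leptin receptor, and of their Lepr WT/WT littermates (WT). The strain was C57BLKS/J, and the mice were 12 or 21 weeks old. Cells of 2 to 3 mice were pooled into 1 droplet library per condition, which gave 4 libraries. They are called 12-week-WT and 12-week-DB for the younger mice, 21-week-WT for the older wild-type and 21-week-DB for the older diabetic mice, and where 4 values are listed they follow this order. The question of the design was how the leukocytes of the distal limb differ with diabetes and with its duration.

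Cells under oxidative or electrophilic stress stabilise the transcription factor NRF2 (Nfe2l2), which is otherwise held and degraded through KEAP1 and which binds antioxidant response elements in its target genes. Among those targets, Slc7a11 imports cystine for glutathione synthesis, Gclm is the modifier subunit of the enzyme that starts glutathione synthesis, Txnrd1 and Srxn1 recharge thioredoxin and peroxiredoxins, Nqo1 reduces quinones, and Hmox1 breaks heme into biliverdin, carbon monoxide and iron. The freed iron is stored in ferritin, a shell of heavy (Fth1) and light (Ftl1) chains, or leaves the cell through ferroportin (Slc40a1). Transferrin-bound iron enters through the transferrin receptor (Tfrc). Tissue macrophages are known for recycling heme iron. Iron regulatory proteins bind RNA hairpins called iron responsive elements, blocking translation when the hairpin is in the 5′ untranslated region and protecting the message when it is in the 3′ untranslated region, so that a transcript level alone does not give the protein level.

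The hairpins are shown first because they divide the iron genes among the 10 from the others. A script searched the untranslated regions of protein-coding GENCODE M21 transcripts (GRCm38, the same assembly as mm10) for the loop CAGTGN, in which N was not G, closed by 5 stem pairs with a C bulge on the 5′ side. Such a hairpin was found in the 5′ untranslated region of 23 of 20899 genes (0.11%) and in the 3′ untranslated region of 100 of 21685 genes (0.461%). Fth1, Ftl1 and Slc40a1 each held 1 in the 5′ region and Tfrc held 4 in the 3′ region, and none of the other 6 genes held one. Each is printed as RNA with the 6 loop bases in capitals.
Fth1, 5′ untranslated region, chr19:9982732-9982761, plus strand: uuccugcuucaaCAGUGCuugaacggaacc
Ftl1, 5′ untranslated region, chr7:45459778-45459807, minus strand: gucuugcuucaaCAGUGUuugaacggaaca
Slc40a1, 5′ untranslated region, chr1:45925464-45925493, minus strand: caacuucagcuaCAGUGUuagcuaaguuug
Tfrc, 3′ untranslated region, chr16:32631219-32631248, plus strand: aauuaucggaagCAGUGCcuuccauaauua
Tfrc, 3′ untranslated region, chr16:32631710-32631739, plus strand: aauuaucgggaaCAGUGUuucccauaauuu
The first and the last of the 4 Tfrc hairpins are shown.

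Promoters were examined for the antioxidant response element core in the 2 spellings TGACNNNGC and TGAGNNNGC, on both strands, over 250 bases before to 50 bases after each RefSeq start site (GRCm38.p6). Of 27025 genes with such a window, 30.8% held either spelling. Windows were at hand for 8 of the 10 genes, and 4 of those held a match, namely Gclm, Slc7a11, Srxn1 and Txnrd1. Whether a match bears on the level of its gene was not tested. The matches of Slc7a11 and Txnrd1 are not shown. Srxn1 held 3 matches, of which 2 upstream of the start are printed with the core in capitals, followed by that of Gclm.
Srxn1, chr2:152105469-152105497, plus strand: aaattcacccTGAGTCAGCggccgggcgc
Srxn1, chr2:152105356-152105384, plus strand: tctactgagaGCCGACTCAtcctctctgg
Gclm, chr3:122245413-122245441, plus strand: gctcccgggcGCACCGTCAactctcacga
The second Srxn1 match and the Gclm match read as the core on the minus strand. No match was found in the windows of Nqo1, Fth1, Ftl1 and Tfrc, which says only that these letters are not in those windows.

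The matrices held 5998, 7463, 8208 and 9124 barcodes in that order, and 5271, 6552, 7270 and 8707 passed the filters with a median of 5355 to 8001 UMIs. Barcodes were assigned to 12 immune classes from marker genes, which left 9.90% to 15.6% unassigned and placed 33 to 70 per library in non-immune classes. Macrophages, recognised by C1q and related genes, numbered 1566, 1745, 1408 and 1490. The smallest classes used were neutrophils (111, 89, 119 and 40 barcodes) and cDC1 (76, 36, 73 and 5), the last of which was not read in 21-week-DB. The 2 libraries of 21 weeks shared 154 barcode sequences, against 6 to 41 for the other pairs. The 21-week libraries were made with a later Cell Ranger version than the 12-week libraries, so that version and age cannot be told apart. The C1q sum in the other 11 classes was between 0.348% and 11.7% of that in macrophages of the same library, which was read as a measure of macrophage RNA in other barcodes, and the highest value came from the 5 cDC1 barcodes of 21-week-DB. C1q helped to assign the classes, which holds it low outside macrophages, so this share may understate such RNA. Each condition is 1 library without replicates, so conditions were compared without a test, and the 95% intervals given for ratios between libraries cover counting error only. The order of the 10 genes over the classes is shown in the plot of levels by class.

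**Figure D1:**
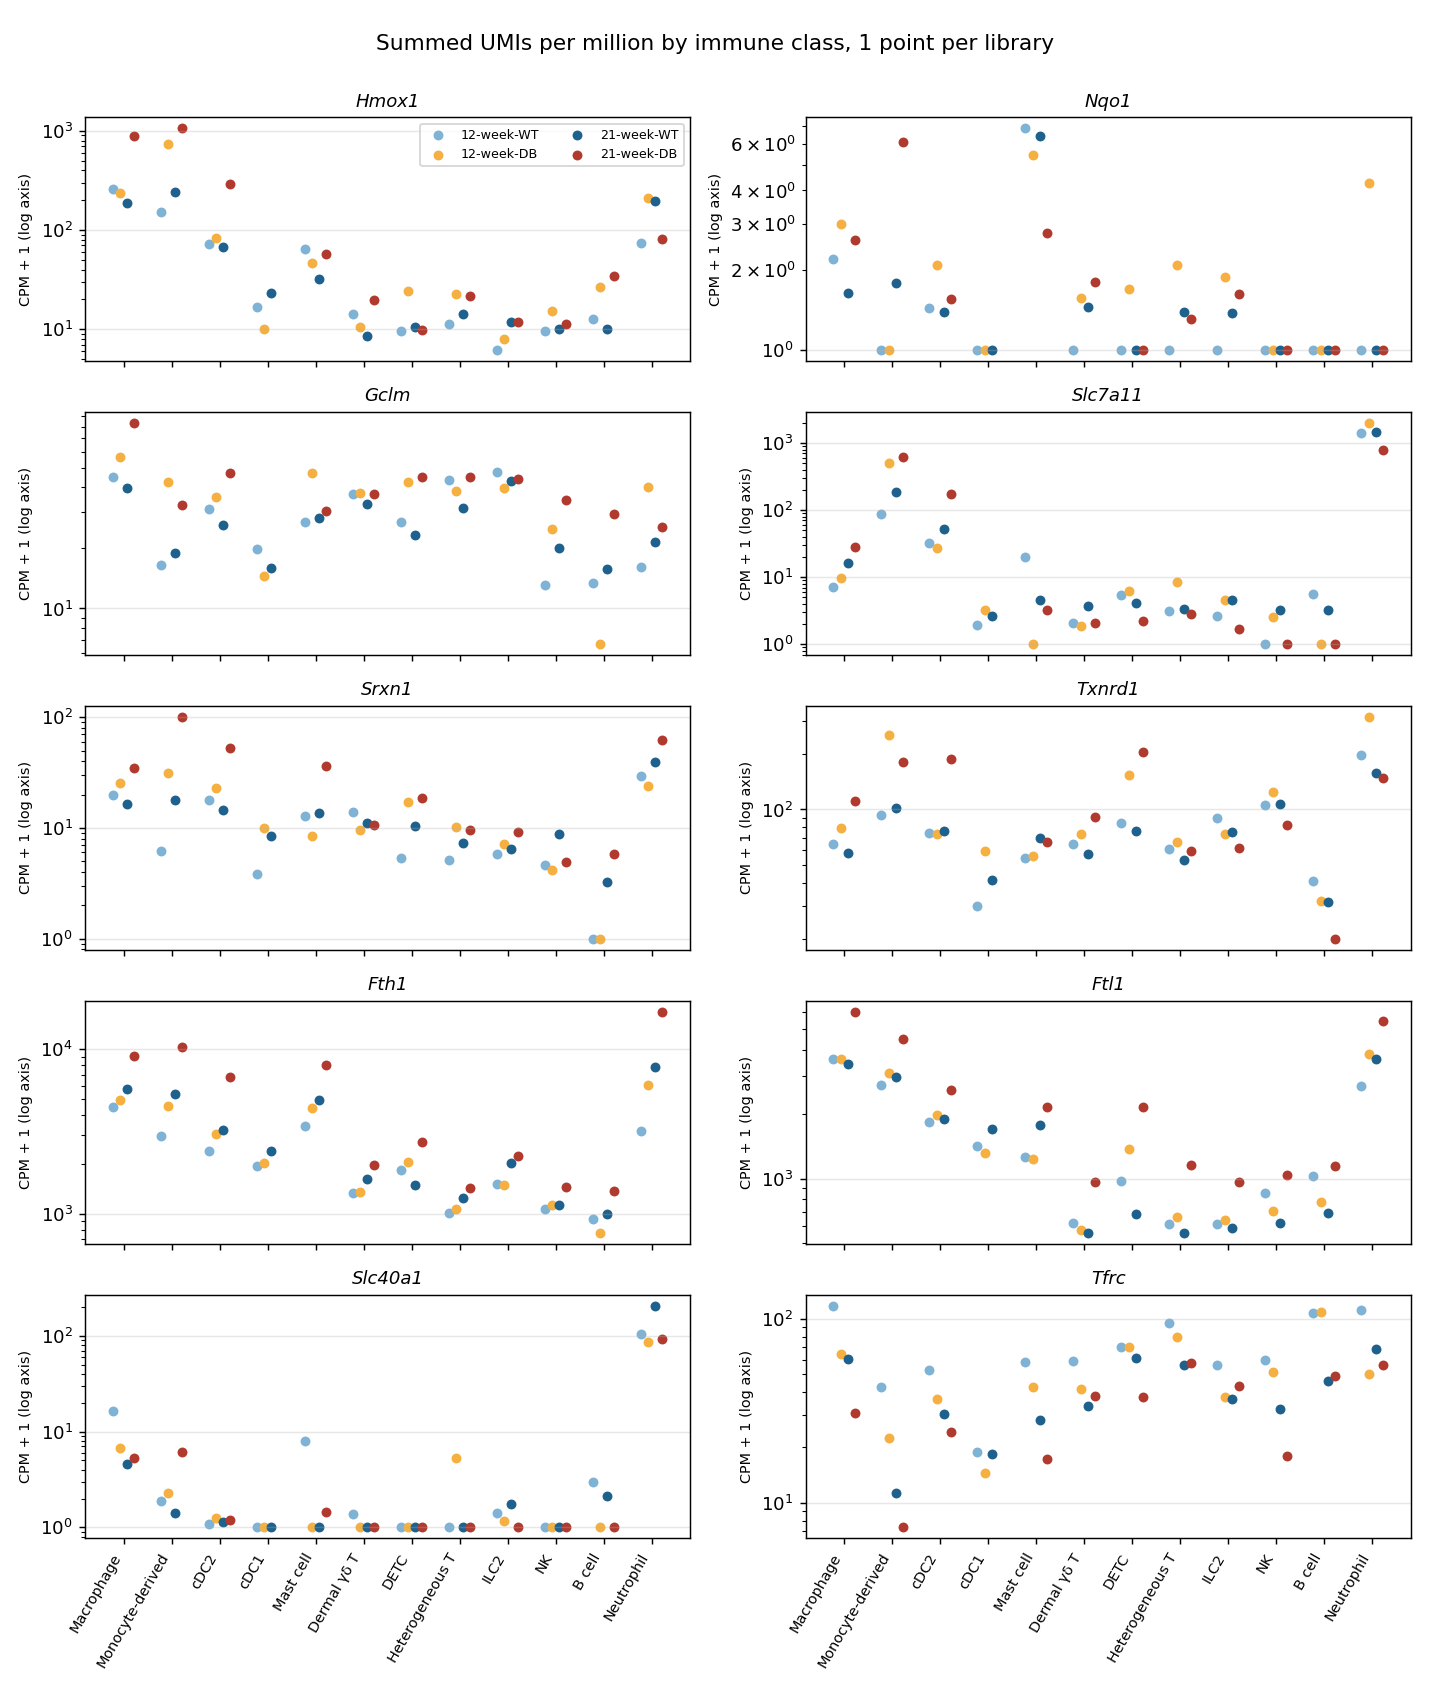
CPM plus 1 (log axis) of each of the 10 genes in 12 immune classes, 1 point per library of at least 10 barcodes. Slc7a11 and Slc40a1 peak in neutrophils, Hmox1 in macrophages and monocyte-derived cells, and the 21-week-DB point of Fth1 lies above the 21-week-WT point in all 11 classes that have both.

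Hmox1 (heme oxygenase 1, chr8:75093621-75100589) was highest in monocyte-derived cells and macrophages. Its level in monocyte-derived cells was 152 CPM in WT and 745 CPM in DB mice at 12 weeks, and 241 and 1056 CPM at 21 weeks. The macrophage values were 258, 237, 185 and 887 CPM. The first 3 macrophage libraries lay close together and 21-week-DB stood apart. Neutrophils followed with 73.9 to 209.7 CPM, cDC2 with 67.0 to 288 CPM and mast cells with 30.8 to 63.3 CPM, and the ranges of these neighbouring classes overlapped. In T cells, ILC2, NK and B cells Hmox1 did not exceed 33.3 CPM. In 21-week-DB its level in ILC2 and NK cells was 1.21% and 1.17% of the macrophage level, where C1q stood at 0.556% and 0.514%.

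Fth1 (ferritin heavy chain, chr19:9980598-9985098) and Ftl1 (ferritin light chain, chr7:45457944-45459884) were by far the most abundant of the 10, detected in 99.7% and at least 98.7% of macrophage barcodes in every library. Fth1 in macrophages was 4489, 4902, 5769 and 9061 CPM and Ftl1 was 3617, 3601, 3437 and 6026 CPM in the order of libraries above. Fth1 in neutrophils was 3169, 6113, 7855 and 16954 CPM, the widest range of any class. The median over libraries ran from 6984 CPM of Fth1 in neutrophils through 5335 in macrophages, 4945 in monocyte-derived cells and 4681 in mast cells down to 964 in B cells, and the first 4 classes overlapped. Mast cells carried much Fth1, at 3410 to 8032 CPM. Their Ftl1, at 1229 to 2168 CPM, ranked 6 among the 12 classes by median. In the lymphoid classes of 21-week-DB, Ftl1 stood at 16% to 35.7% of its macrophage level. C1q, a marker of the assignment, stood at 0.514% to 1.41% in those classes. Ferritin genes have many processed copies in the mouse genome. The annotated copy Ftl1-ps1 took 852 to 1606 UMIs per library against 101339 to 145999 for Ftl1, and reads that match copies equally well could not be told apart here.

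Tfrc (transferrin receptor, chr16:32608920-32632794) was the one gene of the set with its highest median in B cells. Its median was 76.7 CPM in B cells, 67.4 in heterogeneous T cells, 64.4 in DETC (dendritic epidermal T cells), 61.4 in macrophages and 61.3 in neutrophils, with overlapping ranges, and 15.8 CPM in monocyte-derived cells at the low end. Macrophages gave 116 CPM in WT and 63.6 CPM in DB mice at 12 weeks, and 59.1 and 29.7 CPM at 21 weeks. B cells gave 106, 107, 45.1 and 47.6 CPM in that order, so the older libraries were lower in both genotypes.

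Slc40a1 (ferroportin, chr1:45908068-45926523) had its highest CPM in neutrophils. Its level there was 104 CPM in WT and 85.2 CPM in DB mice at 12 weeks, and 205 and 91.6 CPM at 21 weeks, from 55, 26, 91 and 15 UMIs. Macrophages, the larger class, gave 15.5, 5.83, 3.63 and 4.30 CPM, from 233, 111, 57 and 62 UMIs. Every other immune class was at 7.03 CPM or below in every library. After each barcode was thinned to 2000 UMIs, 13.4% to 36.2% of neutrophils and 0.623% to 3.51% of macrophages carried a Slc40a1 UMI. The neutrophil markers S100a8 and S100a9 stood in macrophages at 0.0406% to 0.132% of their neutrophil level, whereas Slc40a1 stood at 1.77% to 14.8%. These markers helped to assign the classes, so the gap does not give the share of neutrophil RNA in macrophages.

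Slc7a11 (cystine transporter, chr3:49892526-50443614) was read mainly in neutrophils, monocyte-derived cells and cDC2. Neutrophils held 1435, 2002, 1463 and 776 CPM, with a UMI in 57.5% to 90.1% of barcodes. Monocyte-derived cells held 87.0 CPM in WT and 507 CPM in DB mice at 12 weeks, and 188 and 620 CPM at 21 weeks. cDC2 held 31.0, 26.5, 51.2 and 170 CPM, and macrophages held 6.23, 8.71, 15.4 and 27.0 CPM. In monocyte-derived cells of 21-week-DB Slc7a11 reached 80.0% of the neutrophil level while S100a8 and S100a9 reached 1.84%. S100a8 and S100a9 helped to assign the classes, so the same limit holds here. In the lymphoid classes Slc7a11 did not exceed 7.58 CPM.

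The other NRF2 targets were spread more evenly. Txnrd1 (thioredoxin reductase 1, chr10:82833951-82897712) had a median of 176 CPM in neutrophils, 140 in monocyte-derived cells, 118 in DETC and 106 in NK cells, down to 30.7 in B cells. Gclm (chr3:122245557-122270732) had its highest median in macrophages at 49.8 CPM, followed closely by ILC2 at 42.4 and heterogeneous T cells at 39.9. Srxn1 (sulfiredoxin 1, chr2:152105516-152111376) had medians of 33.4 CPM in neutrophils, 23.6 in monocyte-derived cells and 21.8 in macrophages, with overlapping ranges. Nqo1 (chr8:107388225-107403206) was almost absent from the sorted leukocytes. All immune classes together gave 29, 66, 30 and 49 Nqo1 UMIs per library, or 0.499 to 1.37 CPM, and mast cells had the highest median over libraries, with 1.77 to 5.86 CPM from 3 to 5 UMIs each. In 21-week-DB monocyte-derived cells were higher at 5.08 CPM, from 4 UMIs.

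Differences between classes were tested within libraries. edgeR's quasi-likelihood test compared each class with the mean of the other 11 over the class sums, with the library as a block, and p-values were adjusted by the Benjamini-Hochberg method over 11532 genes. Nqo1 fell below the filter on low counts, which left 9 of the 10 genes. These p-values rest on the spread of class sums that remains after the library block, over 4 pooled libraries of different conditions.

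Neutrophils had 8 of the 9 genes higher than the other classes and none lower, where 21.2% of all genes tested were higher. Slc7a11 was higher by 8.50 on the log2 scale (SE 0.29, edgeR adjusted p = 3.0e-27). The mean it was set against includes classes where Slc7a11 was near 0. Its median was 0.791 CPM in NK cells and 1.08 CPM in dermal γδ T cells, so the size of this fold is not read. Fth1 was higher by 2.05 (SE 0.11, edgeR adjusted p = 9.6e-20) and Ftl1 by 1.92 (SE 0.10). Slc40a1 is counted among the 8, but it passed the filter on low counts through neutrophils and macrophages, where it was high, so its call supports nothing and its fold and p are not given. Gclm was the exception at 0.13 (SE 0.29, edgeR adjusted p = 0.76).

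Macrophages had 7 of the 9 genes higher and none lower, against 38.5% of all genes higher. Hmox1 was higher than in the other classes by 3.33 on the log2 scale (SE 0.20, edgeR adjusted p = 2.2e-18). Ftl1 was higher by 1.54 (SE 0.10), Fth1 by 1.20 (SE 0.12), Srxn1 by 1.10 (SE 0.21), Gclm by 0.87 (SE 0.11) and Tfrc by 0.55 (SE 0.13). Slc40a1 is counted here too, with the same limit. Slc7a11 at 0.46 (SE 0.42) and Txnrd1 at −0.22 (SE 0.18) did not pass. The median log2 difference of the 9 genes was 1.10, beside 0.09 over all genes tested.

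Monocyte-derived cells had 6 of the 9 genes higher and Tfrc lower, against 26.7% of all genes higher. Slc7a11 was higher by 5.69 (SE 0.32, edgeR adjusted p = 3.2e-19), with the same limit on the size of its fold as in neutrophils. Hmox1 was higher by 4.10 (SE 0.21), Srxn1 by 1.84 (SE 0.29) and Txnrd1 by 1.12 (SE 0.18). Tfrc fell by 1.13 on the log2 scale (SE 0.22, edgeR adjusted p = 4.7e-05). In cDC2 5 of the 9 were higher, namely Slc7a11, Hmox1, Srxn1, Ftl1 and Fth1, against 33.9% of all genes. Fth1, Ftl1 and Hmox1 were each lower in 6 of the 12 classes, the same 6 for all 3 genes: B cells, dermal γδ T cells, DETC, heterogeneous T cells, ILC2 and NK cells. Tfrc was higher in B cells, heterogeneous T cells, macrophages and neutrophils and lower in monocyte-derived cells and cDC1.

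Genes around the set were taken from a list of 25 antioxidant and a list of 23 iron genes, of which 24 and 18 could be tested. In macrophages 12 antioxidant genes were higher and 1 was lower, with a median of 0.30, and 9 iron genes were higher and 1 was lower, with a median of 0.37, where 4445 of all 11532 genes were higher and 3063 lower. Of the list genes named by the rule given in the methods, Blvrb, Txn1, Slc11a1, Hfe and Aco1 were among those higher. Nfe2l2, Gsr, Sod2, Osgin1, Tkt, Slc25a37, Fbxl5 and Hp did not pass, and Cp could not be tested. Hfe was higher by 3.38 (SE 0.12), Aco1 by 0.98 (SE 0.15) and Txn1 by 0.65 (SE 0.12). Blvrb, biliverdin reductase B, was higher by 2.83 (SE 0.10, edgeR adjusted p = 8.0e-27), and Slc11a1, the phagosomal iron transporter NRAMP1, by 3.28 (SE 0.14, edgeR adjusted p = 1.0e-23). In neutrophils 14 antioxidant genes were higher and 5 lower, and 8 iron genes were higher and 2 lower, where 2446 of all genes were higher and 2661 lower.

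The comparison of diabetic with wild-type mice was read in macrophages first, as differences of at least 1.5-fold among genes with at least 50 UMIs in the pair of libraries. At 21 weeks 9 of the 10 genes could be read, 7 were higher in DB and 1 was lower, where 22.1% of all 11421 genes read were past the fold in either direction. The median log2 ratio of the 9 was 0.81, beside 0.05 over all genes. Over all genes 1560 were higher and 968 lower, a split that became 1239 and 1269 when the sums were scaled by TMM, the trimmed mean of M values.

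Hmox1 showed the largest difference, from 185 CPM in 21-week-WT to 887 in 21-week-DB, a log2 ratio of 2.26 with a 95% counting interval from 2.20 to 2.32. Srxn1 went from 15.6 to 33.8 CPM (1.11, interval 0.89 to 1.34) and Gclm from 38.8 to 82.7 CPM (1.09, interval 0.95 to 1.24). Txnrd1 went from 57.3 to 109.6 CPM (0.94, interval 0.82 to 1.06). Each of these 4 NRF2 targets was thus 1.91-fold or more above the wild-type library.

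Both ferritin chains were higher as well. Ftl1 went from 3437 to 6026 CPM (0.81, interval 0.79 to 0.83) and Fth1 from 5769 to 9061 CPM (0.65, interval 0.64 to 0.66). Under TMM scaling Fth1 stood at 0.57, just under the 1.5-fold line, and the other 7 calls held. Slc7a11 was 1.75-fold higher. Tfrc went the other way, from 59.1 to 29.7 CPM, a log2 ratio of −0.99 (interval −1.16 to −0.83). Slc40a1 was 3.63 and 4.30 CPM, a ratio whose interval from −0.30 to 0.79 includes 0, and Nqo1 had 10 and 23 UMIs, too few to read.

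**Figure D2:**
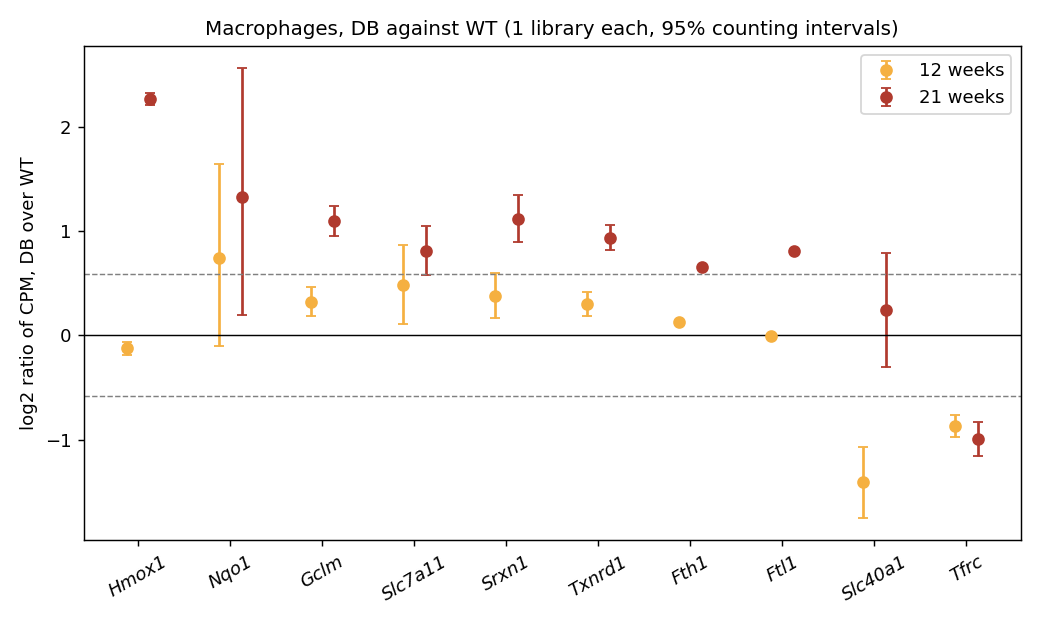
Log2 ratio of CPM in macrophages, DB over WT, for each gene at 12 weeks (orange) and 21 weeks (red), with 95% exact conditional binomial intervals that cover counting error only and dashed lines at 1.5-fold. At 21 weeks Hmox1 lies at 2.26 and Tfrc at −0.99, and at 12 weeks Hmox1 lies at −0.12 and Tfrc at −0.87.

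The difference in Hmox1 was not carried by a few barcodes alone. The median macrophage of 21-week-DB held 3.53 Hmox1 UMIs per 10000, against 0.986 in 21-week-WT, 1.298 in 12-week-DB and 1.49 in 12-week-WT. At the 90th percentile the values were 25.7 in 21-week-DB and 5.04 to 6.26 in the other 3 libraries. After thinning to 2000 UMIs, which left out 42 to 56 shallower macrophages per library, 54.5% of 21-week-DB macrophages carried a Hmox1 UMI against 25.5% to 32.6% elsewhere, and without thinning the shares were 81.1% and 63.0% to 69.9%. The tenth of macrophages with the most Hmox1 held 52.5% of its UMIs in 21-week-DB and 47.8% to 51.0% in the other libraries. Fth1 and Ftl1 were shifted over the whole range: the 25th percentile of Ftl1 in 21-week-DB, 37.6 per 10000, was above the median of each other library, 30.2 to 32.6.

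**Figure D3:**
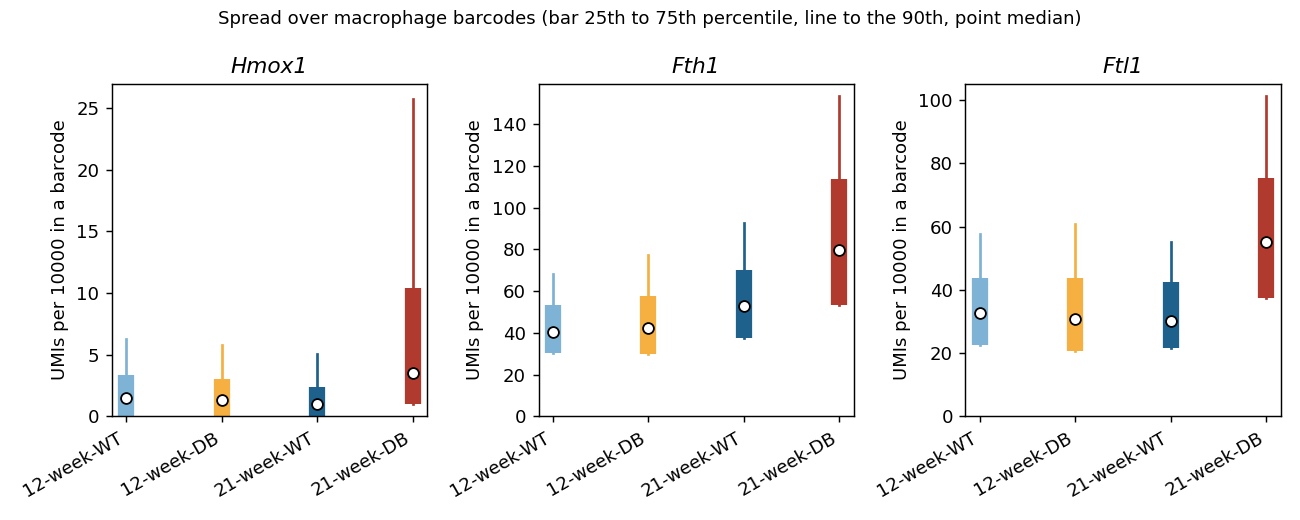
UMIs per 10000 of Hmox1, Fth1 and Ftl1 in single macrophage barcodes of each library, as the median (point), the 25th to 75th percentile (bar) and the 90th percentile (line end). The 21-week-DB bar of Hmox1 reaches 10.4 at the 75th percentile, against 2.40 to 3.36 in the other libraries.

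Several values moved with 21-week-DB beside these genes. The sum of the metallothioneins Mt1 and Mt2 in macrophages, which bind zinc and copper, was 415, 437, 402 and 2572 CPM. Ribosomal protein genes took 16.9% of macrophage UMIs in 21-week-DB and 12.6% in 21-week-WT, a log2 ratio of 0.43. Genes of tissue dissociation stress (Fos, Jun and 6 others) summed to 6227, 3892, 7666 and 7361 CPM, about level at 21 weeks. Markers of erythroid cells summed to 10.9, 1.78, 0.382 and 0.831 CPM in macrophages and so were near 0 in 21-week-DB. The 6 cDC2 markers, MHC class II genes included, summed to 2339, 1675, 2919 and 437 CPM in macrophages. The macrophage marker Apoe was 4101, 3646, 3004 and 11485 CPM. The median mitochondrial share of macrophage UMIs was 3.61%, 2.74%, 4.08% and 2.29%. The part of these in the result was not tested.

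In the lists around the set, 5 of 24 antioxidant genes read were past 1.5-fold higher in 21-week-DB macrophages and 1 was lower, with a median of 0.37. This is near the 22.1% of all genes past the fold, so the values that follow describe the listed genes only. Gsr, glutathione reductase, went from 33.9 to 84.8 CPM, Blvrb from 134 to 245 CPM, Sod2, the mitochondrial superoxide dismutase, from 95.7 to 168 CPM, Nfe2l2 itself from 154 to 231 CPM and Osgin1 from 5.99 to 10.7 CPM. Tkt, transketolase, went down from 151 to 97.8 CPM. Of 18 iron genes read, 4 were higher and 3 lower, with a median of −0.04. Slc11a1 (49.0 to 80.9 CPM), the mitochondrial iron importer Slc25a37 (19.3 to 29.3 CPM), Fbxl5, which controls the turnover of iron regulatory protein 2 (48.1 to 72.3 CPM), and haptoglobin Hp (1.85 to 6.79 CPM) were higher. Aco1, which encodes iron regulatory protein 1 (23.7 to 14.7 CPM), Hfe (65.5 to 43.2 CPM) and ceruloplasmin Cp (9.05 to 4.43 CPM) were lower. Hp was called higher in neutrophils and did not pass in macrophages. In macrophages the neutrophil markers summed to 77.1, 77.8, 74.5 and 143 CPM and the stromal markers to 34.0, 7.61, 12.2 and 4.78 CPM. Their part in the values of Hp and Cp was not tested.

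At 12 weeks fewer of the genes were past the fold in macrophages. Of 10 genes read, 1 was past 1.5-fold higher in DB and 2 were lower, where 12.9% of all genes read were past the fold. Hmox1 was 258 CPM in 12-week-WT and 237 in 12-week-DB, a log2 ratio of −0.12 (interval −0.19 to −0.06), and Ftl1 was level at −0.01 (interval −0.02 to 0.01). Gclm, Srxn1 and Txnrd1 were higher by 0.32, 0.38 and 0.30, beyond counting error and below the fold. Tfrc was lower, at −0.87 (interval −0.98 to −0.76), and so was Slc40a1, from 15.5 to 5.83 CPM (−1.41, interval −1.75 to −1.07). The single gene past the fold upwards was Nqo1, from 18 and 38 UMIs, with an interval that includes 0. In the lists Txn1, thioredoxin, went from 420 to 735 CPM and Hp from 0.862 to 2.57 CPM, and Cp went down from 16.1 to 3.25 CPM. The limit given above for Hp and Cp holds here too.

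With age, the 2 genotypes shared the fall of Tfrc in macrophages and the rise of Slc7a11. Between 12-week-WT and 21-week-WT, 1 of 9 genes read was past the fold higher and 2 were lower, where 15.1% of all genes were past it. Slc7a11 went from 6.23 to 15.4 CPM (1.31, interval 0.96 to 1.67), Tfrc from 116 to 59.1 CPM (−0.97) and Slc40a1 from 15.5 to 3.63 CPM (−2.09, interval −2.53 to −1.67). The median of all genes was −0.16 in this comparison, which TMM scaling brought near 0, and the split of all genes past the fold, 420 higher and 1295 lower, became 670 and 728. In DB mice, from 12 to 21 weeks, 4 of 10 genes were higher (Hmox1 at 1.90, Slc7a11 at 1.63, Fth1 at 0.89 and Ftl1 at 0.74) and Tfrc was lower at −1.10, where 23.6% of all genes were past the fold and their median was −0.11. These comparisons share libraries with those between genotypes.

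**Figure D4:**
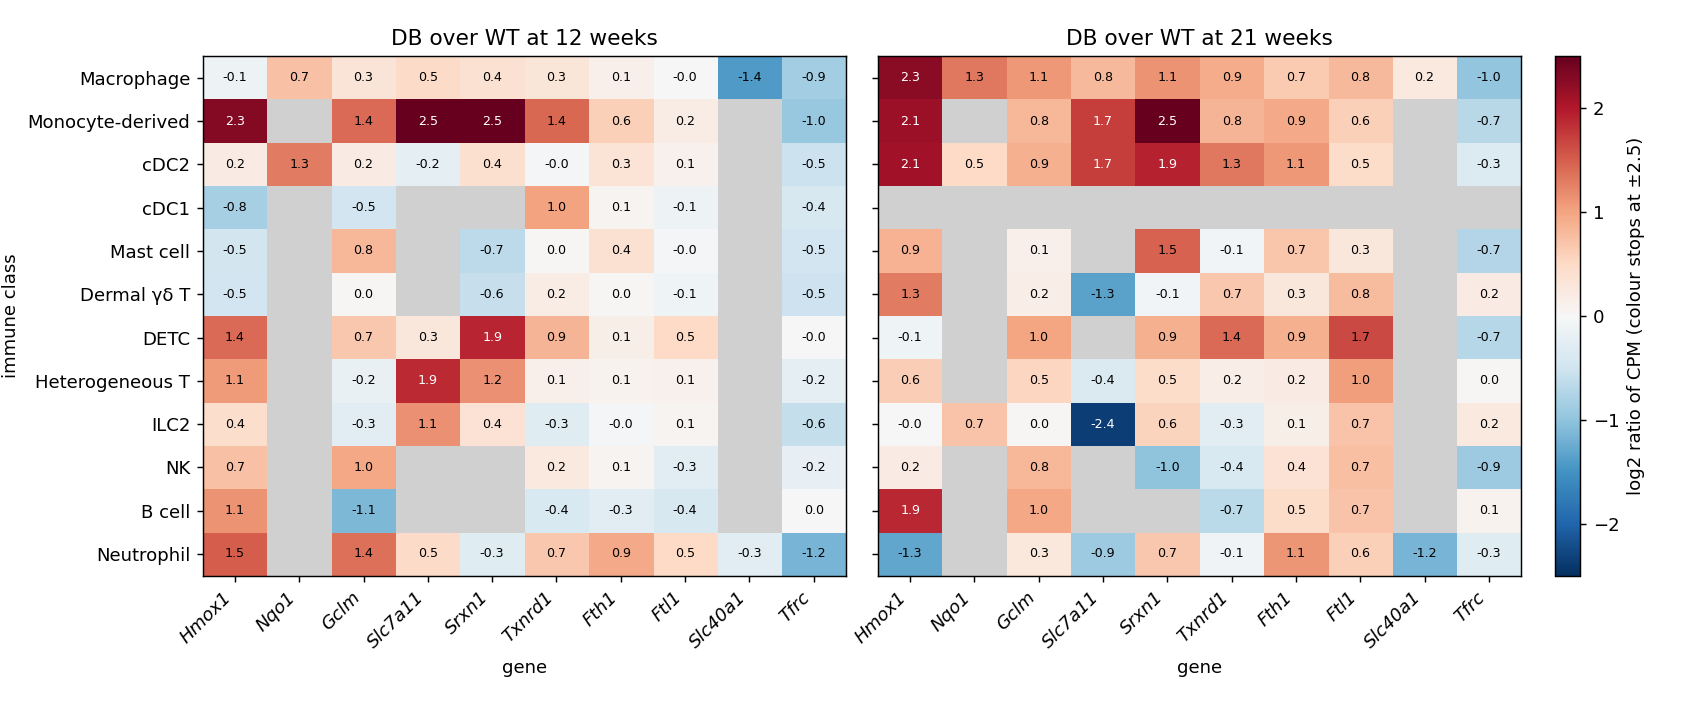
Log2 ratio of CPM, DB over WT, of each gene (columns) in each immune class (rows) at 12 weeks (left) and 21 weeks (right). Grey cells had fewer than 10 barcodes in a library or fewer than 10 UMIs in the pair, and at 21 weeks the columns of Fth1 and Ftl1 are above 0 in all 11 classes shown.

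In the other classes the ferritin genes behaved alike at 21 weeks. Fth1 was higher in 21-week-DB than in 21-week-WT, beyond counting error, in all 11 classes with enough barcodes, by 0.14 to 1.11 on the log2 scale, and Ftl1 in all 11 by 0.28 to 1.65. Among the 4338 genes with at least 10 UMIs in every class pair, 64 (1.48%) were higher in all 11 classes in this way. Of those 64, 47 were ribosomal protein genes, and Fth1 and Ftl1 were the 2 from the set, of 6 that could be read. The ribosomal protein sum itself was higher in each of the 11 classes, by 0.10 to 0.79. From 12 to 21 weeks in DB mice the same 2 genes were higher in all 11 classes, among 77 of 3684 genes (2.09%), and 58 of the 77 were ribosomal. Fth1 also shifted across classes in the other comparisons. Between the 12-week libraries it was higher in DB in 10 of 12 classes, 6 of them beyond counting error, and lower beyond it in 1. From 12 to 21 weeks in WT mice it was higher in 11 of 12 classes, 9 of them beyond counting error. Between the 12-week libraries Ftl1 was higher beyond counting error in 4 of 12 classes and lower in 3.

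Tfrc declined with age in wild-type mice in all 12 classes, in 10 of them beyond counting error, with log2 ratios from −2.01 to −0.03. In DB mice it was lower at 21 weeks in 9 of 11 classes, in 8 of them beyond counting error. Monocyte-derived cells went from 41.4 to 10.3 CPM between 12-week-WT and 21-week-WT. NK cells went from 58.4 to 31.4 CPM and mast cells from 57.4 to 27.2 CPM in the same pair. No class had a rise of Tfrc beyond counting error in either genotype. The median over all genes of a class ran from −0.22 to −0.0005 in WT and −0.23 to −0.09 in DB mice. How many other genes were lower in as many classes was not counted, and age goes with the Cell Ranger version.

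Monocyte-derived cells differed between genotypes at both ages. At 12 weeks Hmox1 was 4.89-fold higher in DB (log2 2.29, interval 2.04 to 2.54) and Slc7a11 5.83-fold higher (2.54, interval 2.23 to 2.87). At 21 weeks Hmox1 was 4.38-fold (2.13, interval 1.98 to 2.28), Slc7a11 3.30-fold (1.72, interval 1.54 to 1.91) and Srxn1 5.83-fold higher (2.54, interval 1.99 to 3.12), the last from 43 and 78 UMIs. The classes held 123, 114, 284 and 83 barcodes. The makeup of this class moved too: its marker Chil3 was 167, 1651, 259 and 2575 CPM, while Ly6c2 was 1674, 569, 860 and 411 CPM. The neutrophil marker S100a8 was 109, 78.0, 159 and 1424 CPM in this class. Scrublet marked 3, 5, 6 and 13 of its barcodes. The part of these in the result was not tested.

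In cDC2 the genotypes were closer in Hmox1 and Slc7a11 at 12 weeks than at 21 weeks. At 12 weeks Hmox1 was 71.2 and 81.7 CPM in WT and DB and Slc7a11 31.0 and 26.5 CPM. At 21 weeks Hmox1 was 67.0 and 288 CPM (2.10, interval 2.00 to 2.21), Slc7a11 51.2 and 170 CPM (1.73, interval 1.61 to 1.86), Srxn1 13.6 and 51.3 CPM (1.92) and Txnrd1 75.5 and 187 CPM (1.31). The cDC2 gate used MHC class II genes, of which H2-Ab1 was 8259 CPM in 21-week-WT and 6268 in 21-week-DB within the class, and the class shrank from 1659 to 415 barcodes. Other genes of myeloid cells moved with it between the 21-week libraries: Lyz2 was 2802 and 5221 CPM, Il1b 1374 and 3401 CPM, Ccl2 138 and 431 CPM, and the cDC2 marker Flt3 131 and 81.8 CPM. Scrublet marked 146 of the 1659 and 67 of the 415 barcodes. The part of these in the result was not tested. Hmox1 in neutrophils was 73.9, 209.7, 196 and 79.4 CPM, the last from 13 UMIs. In neutrophils of 21-week-DB Hmox1 stood at 8.96% and C1q at 9.11% of the macrophage level, so that value is read as background and the 21-week ratio is not. Slc7a11 in neutrophils was 1.40-fold higher in DB at 12 weeks and 0.530-fold at 21 weeks, where 21-week-DB had 40 neutrophils.

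With all immune classes pooled, the ratios depended on how the classes were weighted. Pooled Slc7a11 was 43.2 CPM in 21-week-WT and 40.3 in 21-week-DB, a log2 ratio of −0.10. With the classes of 21-week-DB weighted as in 21-week-WT, it was 104 CPM and the ratio was 1.27. Pooled Hmox1 moved from 89.0 to 324 CPM (1.86), and to 392 CPM with the same weights (2.14).

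Macrophages were further divided by whether a barcode held a UMI of Lyve1, a hyaluronan receptor that marks perivascular macrophages. There were 1100, 1084, 959 and 1014 barcodes with and 466, 661, 449 and 476 without one, and since the median depth was 7488 to 8975 UMIs without and 9349 to 11249 UMIs with Lyve1, the split also follows depth. In edgeR's quasi-likelihood test, fitted with a term for the library, 3 of 9 genes passed after Benjamini-Hochberg adjustment, 2 higher and 1 lower with Lyve1, where 21.3% of 11912 genes were called in either direction.

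Slc40a1 was 19.5, 8.27, 4.32 and 5.26 CPM with Lyve1 and 3.86, 1.08, 1.54 and 1.58 CPM without, higher in 4 of 4 libraries, from 218, 104, 51 and 56 UMIs with and 15, 7, 6 and 6 UMIs without. It passed the filter through the arm where it was high, so these values are a description and its call, though counted, supports nothing. Tfrc was 126, 77.7, 68.3 and 29.6 CPM with and 87.3, 36.3, 31.4 and 30.1 CPM without Lyve1, higher in 3 of 4 libraries by 0.65 (SE 0.16, edgeR adjusted p = 0.019). Slc7a11 was 1.96, 7.55, 9.40 and 5.92 CPM with and 18.5, 10.97, 33.7 and 86.2 CPM without Lyve1, lower in 4 of 4 libraries by 2.41 (SE 0.44, edgeR adjusted p = 0.0051). None of the 3 passed without the library block (edgeR adjusted p = 0.55 for Tfrc and 0.069 for Slc7a11), and Tfrc did not pass without 12-week-WT (0.057) or without 12-week-DB (0.078).

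**Figure D5:**
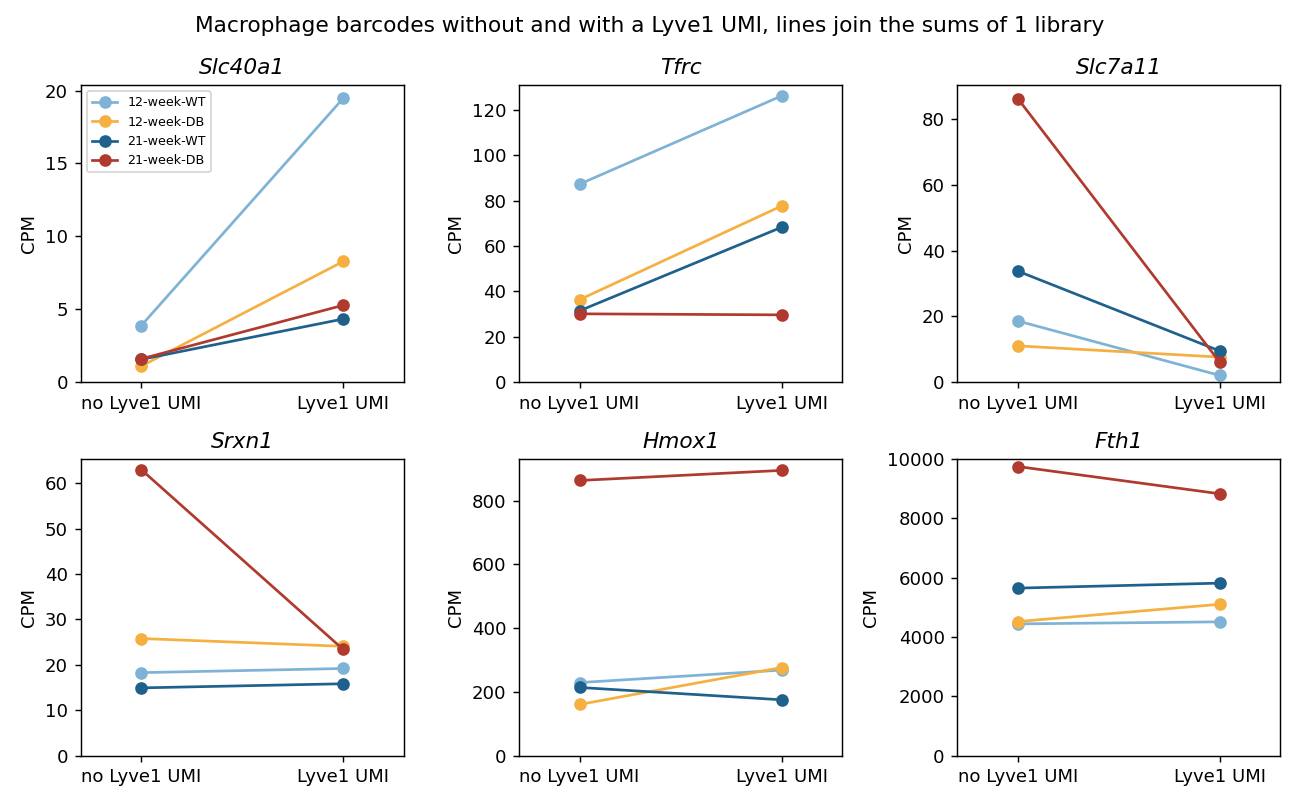
CPM of 6 genes in macrophage barcodes without and with a Lyve1 UMI, 1 line per library. Slc40a1 is higher and Slc7a11 lower with Lyve1 in all 4 libraries, and the 21-week-DB line of Srxn1 falls from 63.0 to 23.4 CPM while the other 3 lines are nearly flat.

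The 2 kinds of macrophage differed in which genes were high in 21-week-DB. Hmox1 was high in both, 895 CPM with Lyve1 against 175 in 21-week-WT and 863 CPM without Lyve1 against 214. Slc7a11 was 5.92 CPM with Lyve1 against 9.40 in 21-week-WT (log2 −0.67, interval −1.14 to −0.21), and 86.2 CPM without Lyve1 against 33.7 (1.35, interval 1.06 to 1.66). Tfrc was lower with Lyve1 (−1.21, interval −1.40 to −1.02) and level without it (−0.06, interval −0.44 to 0.32). Srxn1 was higher by 0.56 (interval 0.28 to 0.84) with and by 2.08 (interval 1.66 to 2.52) without Lyve1. From 12 to 21 weeks in DB mice, Slc7a11 had a log2 ratio of −0.35 (interval −0.83 to 0.12) with Lyve1. Without Lyve1 it was 2.97 (interval 2.60 to 3.37). Tfrc in the same pair was at −1.39 (interval −1.58 to −1.21) with and −0.27 (interval −0.61 to 0.06) without Lyve1. The difference between the 2 kinds rests on 1 library per condition and was not tested.

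Because transferrin receptor is known to be high in dividing cells, lymphocyte classes were split by whether a barcode expressed at least 3 of 6 cell cycle markers. There were 42, 71 and 106 such barcodes in the first 3 libraries and 4 in 21-week-DB, which was left out of the test. Tfrc was 53.5, 60.1 and 32.0 CPM in cycling and 63.2, 49.1 and 38.3 CPM in other lymphocytes, a log2 difference of −0.03 (SE 0.16, edgeR adjusted p = 0.91). None of the 8 genes tested passed in edgeR's quasi-likelihood test, where 26.7% of 11154 genes did. In simulated data this split recovered 28% of 2-fold and 76% of 4-fold changes, so most 2-fold changes were missed there. Unadjusted, 4 of the 8 had p under 0.05, namely Gclm higher and Ftl1, Hmox1 and Fth1 lower in cycling cells. The share of all genes under that threshold, at least 26.7%, was not counted, so these 4 are not read as a result. DESeq2 called 0 of the 8.

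Across 47 sums of a class in a library with at least 30 barcodes, the genes whose profile was most like each of the 10 were found by Pearson's r of log2(CPM + 10) among 6836 genes. These sums share libraries and differ in depth, so the values are a description. Hmox1 was most like Zeb2os (0.91), Pla2g7 (0.90) and Mgst1 (0.89). Pla2g7 was also among the 3 most like Fth1 (0.89), Ftl1 (0.92) and Srxn1 (0.83). Slc7a11 was most like Mcemp1 (0.97), Sirpb1b (0.97) and Il1rn (0.96), and Slc40a1 like Chil1 (0.96), Lrg1 (0.96) and Nlrp12 (0.96). For Tfrc the closest gene was Elmo1 (0.76), for Gclm Capg (0.70) and for Txnrd1 Tnfrsf1b (0.78). Within the set, Fth1 and Ftl1 were closest to each other (0.89), Srxn1 was close to Fth1 (0.86), and Tfrc had a negative r with each of the others read except Slc40a1 (0.30).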

How the data were processed

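Leukocytes of 4 pooled hindpaw samples were profiled by droplet single-cell RNA sequencing. The deposited matrices hold UMI counts per gene and barcode, which the authors made with Cell Ranger on mm10; the file headers name version 5.0.0 at 12 weeks and 6.0.0 at 21 weeks, and the submitters' processing notes name 5.0.0. The values are whole-number counts with no normalization, and later filtering or free RNA correction by the authors was not used here. The matrices held 47851794 to 69626521 UMIs per library.

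A barcode needed 200 detected genes and no more than 10% of its UMIs from mitochondrial genes, and was assigned to the class with the highest marker score, with at least 3 markers detected and a lead of 0.05 over the next class. None of the 10 genes was a marker. Doublets were not removed, and removal of the highest Scrublet scores (scanpy 1.11.5) was an alternative, taking out 253 to 636 barcodes per library. Sums per library and class of at least 10 barcodes were divided by their total UMIs (CPM). Ratios between libraries carry 95% exact conditional binomial intervals (scipy 1.17.1), which cover counting error only. Tests within libraries used edgeR 4.0.16 (quasi-likelihood, TMM, filterByExpr, Benjamini-Hochberg over all genes tested, threshold 0.05) in R 4.3.3, with DESeq2 1.42.0 as an alternative, and were tested on simulated data.

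All 10 genes are named. Genes of the antioxidant and iron lists are named where they were past 1.5-fold with at least 50 UMIs in macrophages in a DB against WT comparison, at most 8 per list. Of the listed iron genes 22 of 23 were found by symbol. One allele of the strain is not reported here. The genes and lists were chosen with earlier results of these data known.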

Additional observations from a re-analysis of the deposited data

Results flagged for a closer look

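In macrophages Hmox1 moved in opposite directions between genotypes at the 2 ages, with a log2 DB over WT ratio of −0.12 at 12 weeks and 2.26 at 21 weeks. At 12 weeks the ratio was −0.51 in macrophages without a Lyve1 UMI and 0.04 in those with one, the latter with an interval from −0.03 to 0.11. The age ratios also had opposite signs in WT and DB mice. For Hmox1 they were −0.48 in WT and 1.90 in DB. For Gclm they were −0.19 and 0.58, for Srxn1 −0.28 and 0.45, for Txnrd1 −0.15 and 0.48, and for Ftl1 −0.074 and 0.74. With 1 library per condition these differences were not tested. Under TMM scaling the WT age ratios of Txnrd1 and Ftl1 became 0.01 and 0.08, so their opposite signs rest on the scaling. Gclm at −0.19 in WT lay near the median of all genes, −0.16, which TMM scaling brought to 0.001. The WT age ratio of Srxn1 had intervals that include 0 both with Lyve1 (−0.57 to 0.01) and without it (−0.82 to 0.23). A fall of Gclm or Srxn1 with age in WT mice is therefore not read.

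Nqo1 was read outside the immune classes. In non-immune barcodes it stood at 10.8 CPM in WT and 17.2 CPM in DB mice at 12 weeks, and 14.0 and 27.0 CPM at 21 weeks, from 7, 9, 5 and 11 UMIs in 70, 68, 33 and 52 barcodes. Few barcodes of differing classes held these UMIs. In 12-week-DB all 9 were in 2 of 9 endothelial barcodes, and in 12-week-WT 5 were in 2 of 7. In 21-week-DB 8 were in 6 of 20 keratinocyte barcodes, so the libraries are not compared here. A count of 0 would have allowed 4.62 to 8.39 CPM there. The immune classes of the same libraries gave 0.499 to 1.37 CPM.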

How the results depend on the processing

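At a threshold of 2-fold, 1 of the 10 genes was past it in DB against WT macrophages at 12 weeks, 3 at 21 weeks and 3 between the ages in DB mice, against 3, 8 and 5 at 1.5-fold. In the Lyve1 split 6 genes were called with no filter on low counts and 0 without the library block, against 3, and leaving out 1 library gave 2 to 4. In the cycling split 3 genes were called with no filter, 2 at most 5% mitochondrial UMIs and 1 under the stricter gate, against 0, and leaving out 1 library gave 0 to 1. The cause was not tested. No called value changed direction under the alternatives run, while ratios of uncalled genes near 0 did under TMM scaling, namely Ftl1 at 12 weeks (0.01 from −0.01) and the WT age ratios of Txnrd1 (0.01) and Ftl1 (0.08). Leaving out barcodes found in more than 1 library was chosen after seeing the data. It changed no count of the 10 genes called in the tests, while genes higher in macrophages over all genes went from 4445 to 4269. It moved the DB age comparison in macrophages from 5 to 6 of the 10 genes, as did TMM scaling, the stricter gate and doublet removal. Slc7a11 in macrophages at 12 weeks moved from 0.48 to 0.97 with free RNA subtracted and to 0.01 with doublets removed, and at 21 weeks from 0.81 to 1.29 with free RNA subtracted.

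No paired analysis was possible because each condition is 1 library, so conditions share fewer than 2 replicate numbers. An additive fit of genotype and age over the 4 libraries was not run. Depth limits Nqo1 everywhere, Slc40a1 outside neutrophils and macrophages, and every gene in the 40 neutrophils of 21-week-DB.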
